A study of Mus musculus with 28 samples.

Results

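The CC chemokine genes described here form 2 groups on mouse chromosome 11: Ccl2, Ccl7, Ccl12 and Ccl8, the monocyte chemoattractant group, and Ccl5, Ccl9, Ccl6, Ccl3 and Ccl4, the macrophage inflammatory protein group. Their members are the peaks whose nearest protein-coding gene span on mm10, within 50 kb, was one of these 9 genes. This gave 67 of 71707 peaks, 48 of the 63313 peaks of histone H3 lysine 27 acetylation (H3K27ac, a mark of active promoters and enhancers) and 19 of the 8394 peaks of GR, the glucocorticoid receptor, a transcription factor that both steroids used here activate. Both were measured by chromatin immunoprecipitation and sequencing in macrophages grown for 5 days from bone marrow of male C57BL/6 mice, 8 to 10 weeks old, in medium with L-cell conditioned supplement. The groups were vehicle, corticosterone at 500 nM (Cort, the main natural glucocorticoid of mice), dexamethasone at 100 nM (Dex, a synthetic one) and interleukin 4 at 10 ng/ml (IL4). No group carried a genetic change, and treatment lasted 24 h, although the titles of the H3K27ac vehicle libraries give no time. H3K27ac had 3 libraries per group. GR had 3 IL4 libraries, all in batch 2, and 4 libraries in every other group, 2 in each of batches 1 and 2. The labels do not say whether libraries came from separate mice or cultures, so p-values measure the spread between these libraries, which may be technical.

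CC chemokines are small secreted proteins that draw leukocytes by binding G protein-coupled receptors. Ccl2, Ccl7, Ccl8 and Ccl12 attract monocytes and other leukocytes. Ccl3, Ccl4 and Ccl5 attract monocytes and lymphocytes. Ccl6 and Ccl9 are rodent chemokines made in quantity by myeloid cells. Several of these genes are classic targets of NF-kB in stimulated macrophages, and glucocorticoids are known to repress their induction. IL4 acts through STAT6 and drives alternative macrophage activation. Transcripts were not measured here, and with arrays this dense the nearest gene need not be the one a peak acts on.

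Promoter sequence was found in the RefSeq table (GRCm38.p6, the assembly of mm10) for 5 of the 9 genes: Ccl12, Ccl8, Ccl9, Ccl6 and Ccl3. The promoters of Ccl8, Ccl9 and Ccl6 are shown because these 3 genes had higher H3K27ac after IL4 when all peaks of a gene were summed. Each is the 250 bases before the gene's start, 5′ to 3′ on the gene's strand, with motif matches in capitals. Ccl8 lies on the plus strand (chr11:82114935-82115184), and Ccl9 (chr11:83578637-83578886) and Ccl6 (chr11:83593088-83593337) lie on the minus strand. Each lies inside the H3K27ac peak that covers its gene.
Ccl8: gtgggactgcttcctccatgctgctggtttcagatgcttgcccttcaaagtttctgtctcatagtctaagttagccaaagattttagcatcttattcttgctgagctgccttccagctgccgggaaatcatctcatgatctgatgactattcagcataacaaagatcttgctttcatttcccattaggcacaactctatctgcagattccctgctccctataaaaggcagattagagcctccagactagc
Ccl9: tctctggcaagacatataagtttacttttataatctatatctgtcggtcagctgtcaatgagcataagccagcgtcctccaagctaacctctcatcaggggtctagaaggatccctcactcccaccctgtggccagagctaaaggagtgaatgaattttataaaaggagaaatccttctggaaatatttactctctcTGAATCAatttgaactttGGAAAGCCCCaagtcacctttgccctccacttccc
Ccl6: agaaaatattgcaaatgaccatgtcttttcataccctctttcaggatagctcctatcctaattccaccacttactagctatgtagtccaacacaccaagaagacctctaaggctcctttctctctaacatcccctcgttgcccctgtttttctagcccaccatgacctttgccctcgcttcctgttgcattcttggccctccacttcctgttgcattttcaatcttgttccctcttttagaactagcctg
The motifs searched on both strands were the glucocorticoid response element (AGAACA and TGTTCT with 3 free bases between them, at most 2 mismatches), the STAT6 site (TTC and GAA with 4 free bases between them), the AP-1 site TGANTCA, the cyclic AMP response element TGACGTCA and NF-kB, the last 4 without mismatches. The Ccl9 promoter held 1 AP-1 match, 53 to 47 bases before the start, and 1 NF-kB match, 35 to 26 bases before it, and they do not overlap. No other match was found in the 5 promoters. Among the 32851 promoters of the table, 7.25% held an NF-kB match, 6.75% AP-1, 5.85% STAT6, 1.56% the glucocorticoid response element and 1.55% the cyclic AMP response element. A match is a description of letters, and the absence of one says nothing of a factor's binding.

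Counts in peaks ranged from 6829787 to 15695771 per H3K27ac library and from 900063 to 1981582 per GR library. A single region held 45.4% to 59.2% of GR counts. Levels are given as CPM, the count of a peak scaled to the library total in peaks after TMM normalisation, so they are relative to the other peaks. A peak was called changed at a Benjamini-Hochberg adjusted p under 0.05 in edgeR's quasi-likelihood test, over all tested peaks of the assay. H3K27ac libraries with the same replicate number varied together, so the same test with that number as a block is printed where it alters a call. All 8 macrophage marker genes had an H3K27ac peak within 1 kb above the median of all peaks. Of 6 neutrophil markers 2 had such a peak, S100a8 and Csf3r, Elane had one below the median, S100a9, Ly6g and Mpo had no peak within 1 kb, and the summed level of the list was 112 to 147 CPM in vehicle, 126 to 166 with Cort, 121 to 160 with Dex and 192 to 246 with IL4. Of 7 fibroblast markers only Pdgfrb had one, with 53 to 61.8 CPM in vehicle, 65.3 to 83.3 with Cort, 70 to 83.3 with Dex and 69.1 to 87.9 with IL4. Of 7 lymphoid markers 2 had one, Ms4a1 and Il7r, Cd79a had a peak below the median, Cd3e, Cd3g and Nkg7 were among those with no peak, and the list stood at 243 to 277 CPM in vehicle, 185 to 234 with Cort, 174 to 224 with Dex and 250 to 329 with IL4. Of 5 dendritic cell markers 3 had one, Flt3, Zbtb46 and Xcr1, Clec9a had a peak below the median and Siglech no peak, and the list stood at 179 to 268 CPM in vehicle, 182 to 246 with Cort, 206 to 226 with Dex and 91 to 118 with IL4. None of 6 mast cell or basophil markers had a peak within 1 kb. The part of these marker changes in the results below was not tested.

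All 9 genes carried H3K27ac in resting macrophages, at levels that differed widely between genes. Compared per length, the vehicle libraries averaged 24.7 CPM per kb at the Ccl2 peak 26.2 kb from the gene (chr11:82003368-82009387), the highest of the monocyte chemoattractant group. The peak over the Ccl2 gene itself (chr11:82035481-82040462) averaged 6.48 CPM per kb. In the other group the peak over the end of the Ccl4 span (chr11:83661596-83666600) averaged 17.5 CPM per kb, the highest there. The peak covering Ccl3 and the start of the Ccl4 span (chr11:83644873-83652717) averaged 17.0 CPM per kb and the domain over Ccl9 (chr11:83569826-83582082) 15.8. Ccl8 was at the low end, with 0.662 CPM per kb over its gene (chr11:82114254-82116427). No H3K27ac peak covered the Ccl5 gene, and its 7 peaks lay from 2.45 kb away outward. Of the 48 H3K27ac peaks, 3 had too few counts to be tested, 1 each for Ccl12, Ccl8 and Ccl5.

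Libraries of the monocyte chemoattractant group differed by replicate number in every treatment. Summed over its peaks, the libraries of replicates 1, 2 and 3 held 384, 652 and 291 CPM in vehicle, 420, 799 and 234 with Cort, 381, 793 and 213 with Dex, and 534, 789 and 437 with IL4. Replicate 2 was the highest and replicate 3 the lowest in all 4 groups. The macrophage inflammatory protein group held 731, 912 and 808 CPM in vehicle, 842, 1130 and 817 with Cort, 765, 1120 and 888 with Dex, and 781, 1000 and 829 with IL4. In a test of the replicate number, added after the data were seen, 17 of the 18 tested peaks of the first group and 10 of the 27 of the second were called, against 31.2% of all tested peaks. The median difference between the highest and lowest replicate was 1.56 on the log2 scale in the first group, 0.51 in the second and 0.45 over all peaks. Ccl5, of the second group, varied widely too: 5 of its 6 tested peaks were called, with a median difference of 1.66, and replicate 2 was the highest at all 6. What the replicate numbers stand for is not stated.

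**Figure D1:**
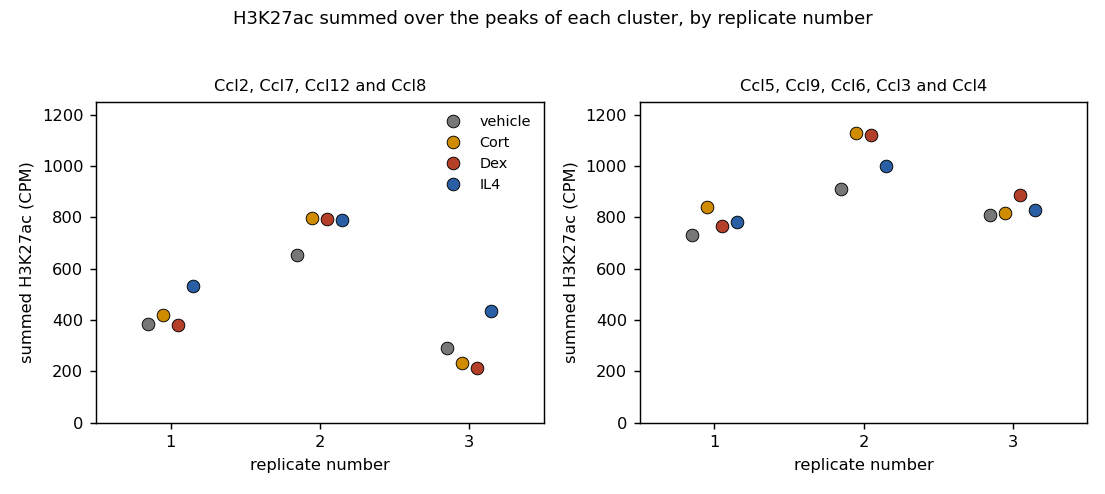
H3K27ac summed over the peaks of each chemokine group (y axis, CPM) in each of the 12 libraries, placed by replicate number (x axis) and coloured by treatment. In the left panel replicate 2 lies between 652 and 799 CPM in every treatment, above replicates 1 and 3, and in the right panel the replicates lie closer together relative to their level.

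IL4 raised H3K27ac at peaks of Ccl2 and Ccl8. In the monocyte chemoattractant group 4 of 18 tested peaks rose and none fell, and with the replicate block 12 rose and 1 fell. Over both groups 10 of 45 peaks rose and 1 fell, a share close to the background, since 27.6% of all tested peaks were called with IL4, 14.7% higher and 12.9% lower. The count of 11 was 4 without vehicle replicate 3, 7 without vehicle replicate 2 and 6 without IL4 replicate 2. With the block 20 rose and 5 fell, against 43.5% of all peaks, 21.9% higher and 21.6% lower. The median log2 fold change was 0.77 over the 18 peaks of the first group, 0.10 over the 27 of the second and -0.02 over all tested peaks.

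The Ccl2 peak 23.3 kb from the gene (chr11:82010410-82012306) held 3.96, 2.46 and 1.43 CPM in vehicle replicates 1, 2 and 3 and 12.7, 7.37 and 7.45 CPM with IL4. Every IL4 library lay above every vehicle library, and the ratios within replicate numbers were 3.21, 3.00 and 5.21. This was a log2 fold change of 1.85 ± 0.38 (SE, 3 libraries per group, edgeR adjusted p = 0.00288). This call held without each library in turn. Its neighbour 18.4 kb from the gene (chr11:82014937-82017173) held 8.17, 5.98 and 6.02 CPM in vehicle and 15.9, 15.5 and 12.1 CPM with IL4, also without overlap. Its log2 fold change was 1.12 ± 0.38 (edgeR adjusted p = 0.041, and 0.0503 with total-count scaling). It is named here after its values were seen, and without any 1 of vehicle replicates 2 and 3 or IL4 replicates 1, 2 and 3 its adjusted p was 0.0602 to 0.116. The strongest Ccl2 peak, 26.2 kb away, differed by -0.14 ± 0.33 on the log2 scale (edgeR adjusted p = 0.803), with an interval from -0.86 to 0.58. With the replicate block the peak over the Ccl2 gene itself rose by 0.54 (adjusted p = 0.0298).

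Ccl8 encodes an attractant of monocytes and, in mice, a ligand of Ccr8. Its peak 21.9 kb from the gene (chr11:82138724-82141148) held 10.3, 21.0 and 8.93 CPM in vehicle and 40.4, 54.3 and 36.1 CPM with IL4. All 3 IL4 libraries were above all 3 vehicle libraries, by ratios of 3.92, 2.59 and 4.04 within replicate numbers. The log2 fold change was 1.70 ± 0.47 (edgeR adjusted p = 0.0157) and, with the replicate block, 1.79 (adjusted p = 7.37e-09). Leaving out vehicle replicate 1, vehicle replicate 3 or IL4 replicate 2 moved the adjusted p to 0.0517 to 0.0638. The peak over the Ccl8 gene, which holds the promoter shown above, held 1.98, 1.97 and 0.372 CPM in vehicle and 3.33, 14.7 and 3.11 CPM with IL4. The groups did not overlap, but IL4 replicate 2 stood far above the other two. Its log2 fold change was 2.37 ± 0.76 (edgeR adjusted p = 0.0322), and it was 1.22 without IL4 replicate 2 (adjusted p = 0.236). Without replicate 2 of every group, a choice made after the data were seen, it was 1.63 (adjusted p = 0.137). The call also ended without vehicle replicate 2 (adjusted p = 0.0571) or replicate 3 (adjusted p = 0.116). With the block, and all libraries, it was 2.35 (adjusted p = 6.61e-06).

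At Ccl7 and Ccl12 the peaks over the genes were called with the replicate block and not without it. The peak over the Ccl7 gene (chr11:82044117-82050122) held 38.9, 73.9 and 21.0 CPM in vehicle and 88.4, 118 and 66.1 CPM with IL4, so the groups overlapped. Within replicate numbers IL4 was higher by 2.27, 1.60 and 3.15 times. The log2 fold change was 1.03 ± 0.64 without the block (edgeR adjusted p = 0.262) and 1.22 ± 0.20 with it (adjusted p = 2.48e-05). Over Ccl12 (chr11:82098566-82104054) the levels were 55.1, 140 and 45.9 CPM in vehicle and 72.5, 154 and 66.0 CPM with IL4. This gave 0.28 ± 0.57 without the block (edgeR adjusted p = 0.766) and 0.36 ± 0.11 with it (adjusted p = 0.0149). The sign of the unblocked value turned without IL4 replicate 2, to -0.22. The 1 peak of the group that fell with the block was a Ccl12 peak 8.56 kb from the gene (-0.78, adjusted p = 0.00106), named after its values were seen. The last peak that the rule for named peaks gave, a Ccl8 peak 19.9 kb from the gene, held 0.0697 to 1.30 CPM in the 12 libraries and was not called in any comparison with vehicle.

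In the macrophage inflammatory protein group IL4 raised 6 of 27 tested peaks, at Ccl9, Ccl6 and Ccl3, and lowered 1 at Ccl4. Of all tested peaks 14.7% were higher and 12.9% lower. With the block 8 rose and 4 fell, where 21.9% of all were higher and 21.6% lower. The share called in this group was close to that of all peaks, 25.9% against 27.6%, and 44.4% against 43.5% with the block. The domain over Ccl9 held 186, 196 and 197 CPM in vehicle and 237, 279 and 237 CPM with IL4. The groups were well apart but the change was small, at 0.38 ± 0.10 on the log2 scale (edgeR adjusted p = 0.0153). The call ended without IL4 replicate 2 (0.29, adjusted p = 0.0772) and with scaling by low-count peaks (0.30, adjusted p = 0.256). A small peak 4.36 kb from Ccl9, named after its values were seen, rested on 12 counts in vehicle and 40 with IL4 in all (log2 fold change 1.73 ± 0.54, edgeR adjusted p = 0.0289). Its adjusted p was 0.0585 in DESeq2 and 0.0657 to 0.127 without any 1 of vehicle replicates 1 and 3 or IL4 replicates 1 and 3.

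Ccl6 had 3 called peaks that were named after their values were seen. The peak 5.52 kb from the gene (chr11:83598611-83603214) held 27.6, 27.9 and 27.2 CPM in vehicle and 45, 57.9 and 44.5 CPM with IL4. The vehicle libraries were nearly identical and all IL4 libraries far above them, with a log2 fold change of 0.83 ± 0.14 (edgeR adjusted p = 0.000835), and the call held without each library in turn. The peak over the gene (chr11:83590899-83594341) rose by 0.43 ± 0.14 (edgeR adjusted p = 0.0329) and the peak 13.5 kb away by 0.64 ± 0.20 (edgeR adjusted p = 0.0258). Both lost their call without vehicle replicate 2, vehicle replicate 3 or IL4 replicate 3, the peak over the gene also without IL4 replicate 1 or 2, at adjusted p of 0.0516 to 0.131. The call also ended for both under total-count scaling and scaling by low-count peaks (adjusted p from 0.0558 to 0.211). The strongest Ccl6 peak, 21.9 kb from the gene (chr11:83614991-83619657), held 76.4, 61.9 and 80.1 CPM in vehicle and 95.5, 111 and 87.0 CPM with IL4. Its log2 fold change was 0.42 ± 0.16 (edgeR adjusted p = 0.0634), and with the block 0.44 (adjusted p = 0.00516).

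In the RefSeq table the spans of Ccl3 (chr11:83647843-83649378) and Ccl4 (chr11:83648624-83664683, 16060 bp) overlap. The Ccl3 peak 15.4 kb from the gene (chr11:83630235-83632471) held 14.1, 11.3 and 10.5 CPM in vehicle and 22.2, 23.7 and 25.5 CPM with IL4, a log2 fold change of 1.00 ± 0.16 (edgeR adjusted p = 0.000523). No IL4 library overlapped vehicle, and the call held without each library in turn. The peak over Ccl3 and the start of the Ccl4 span held 108, 159 and 135 CPM in vehicle and 86.6, 119 and 95.2 CPM with IL4. These groups overlapped, at -0.41 ± 0.24 (edgeR adjusted p = 0.215), but IL4 was lower in 3 of 3 replicate numbers and the peak fell with the block (-0.41 ± 0.09, adjusted p = 0.00061). A peak 10.6 kb beyond Ccl4 (chr11:83675262-83675836), named after its values were seen, held 2.97, 1.80 and 3.54 CPM in vehicle and 0.739, 0.729 and 1.56 CPM with IL4. It fell by 1.41 ± 0.36 on the log2 scale (edgeR adjusted p = 0.0105), and by 1.15 without vehicle replicate 3 (adjusted p = 0.0634). Of the Ccl5 peaks, 1 fell with the block, 18.8 kb from the gene (chr11:83549295-83551289), also named after its values were seen. It held 16.7, 31.9 and 22.4 CPM in vehicle and 7.52, 15.3 and 10.1 CPM with IL4, ratios of 0.45, 0.48 and 0.451 within replicate numbers. The blocked log2 fold change was -1.15 ± 0.22 (adjusted p = 0.000149), against -1.10 ± 0.59 without the block (edgeR adjusted p = 0.186).

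**Figure D2:**
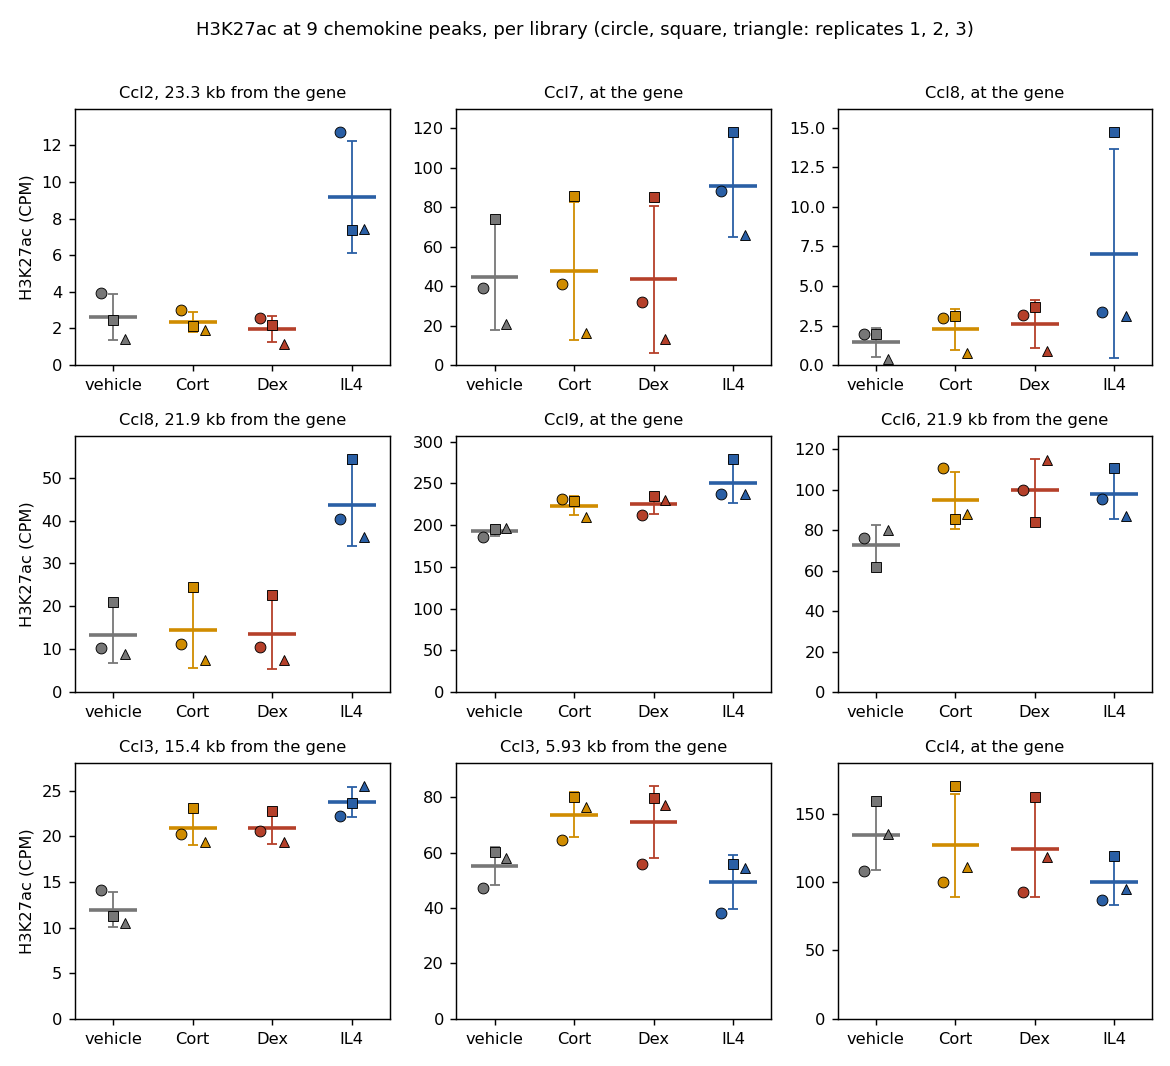
H3K27ac (y axis, CPM) at 9 chemokine peaks in the 12 libraries, by treatment, where symbols are replicates 1 (circle), 2 (square) and 3 (triangle), horizontal lines are means and bars are SD. At the Ccl2 peak 23.3 kb from the gene the IL4 libraries lie between 7.37 and 12.7 CPM, above all others, and at Ccl7 the square is the highest in every treatment.

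No tested chemokine peak was called lower in H3K27ac with either steroid, with or without the replicate block. Lower calls were few over all peaks too. Without the block they were 225 of 59881 tested peaks with Cort and 1404 with Dex, so few or none would be found among 45. The log2 fold change was below 0 at 13 of 45 peaks with each steroid. In the blocked fit it was below 0 at 15 with Cort and 17 with Dex. With Cort 1 of 45 peaks rose, where 1.55% of all tested peaks were called and 1.18% were higher. With Dex 1 rose, where 5.24% were called and 2.9% were higher. With the block 8 rose with each steroid. With Cort 12.6% of all peaks were then called and 6.44% higher, and with Dex 20.3% and 9.91%. The peak called without the block was in both cases the Ccl3 peak 15.4 kb from the gene. It held 20.3, 23.1 and 19.4 CPM with Cort and 20.6, 22.8 and 19.4 CPM with Dex, all above the 3 vehicle libraries. The log2 fold change was 0.81 ± 0.16 with Cort (edgeR adjusted p = 0.0203) and 0.81 ± 0.16 with Dex (edgeR adjusted p = 0.0102). The Cort call ended without vehicle replicate 2 or 3 or Cort replicate 1 or 2 (adjusted p from 0.0566 to 0.116), in a fit of vehicle and Cort alone (0.0984) and with scaling by low-count peaks (0.0509). The Dex call ended without vehicle replicate 3 (0.06). With the block the adjusted p was 0.000306 and 0.000157. The same peak rose with IL4, and the 3 comparisons share the vehicle libraries.

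With the block, 7 of the 8 peaks that rose belonged to the macrophage inflammatory protein group with each steroid. The Ccl3 peak 5.93 kb from the gene (chr11:83638461-83641915) held 47.2, 60.1 and 58.2 CPM in vehicle, 64.5, 80.0 and 76.4 CPM with Cort and 56.0, 79.6 and 77.2 CPM with Dex. Its blocked log2 fold change was 0.42 ± 0.09 with Cort (adjusted p = 0.00337) and 0.36 ± 0.09 with Dex (adjusted p = 0.00668). With IL4 it held 38.3, 55.8 and 54.3 CPM, lower than vehicle in 3 of 3 replicate numbers but not called (-0.16, edgeR adjusted p = 0.569). The strongest Ccl6 peak held 111, 85.5 and 88.1 CPM with Cort and 100, 84.2 and 115 CPM with Dex. Both groups lay wholly above vehicle, at 0.38 with Cort (adjusted p = 0.0414) and 0.46 with Dex (adjusted p = 0.00843), with the block. The domain over Ccl9 rose with Dex in the blocked test (0.23, adjusted p = 0.0391), and its Cort value was 0.21 (adjusted p = 0.0765). The Ccl5 peak 12.7 kb from the gene (chr11:83543219-83545417) held 8.79, 30.8 and 11.7 CPM in vehicle and 12.5, 55.5 and 14.8 CPM with Cort, and rose in the blocked test (0.60, adjusted p = 0.0289). Its unblocked value was 0.70, and -0.33 without Cort replicate 2. In the monocyte chemoattractant group the 1 peak that rose with each steroid was a Ccl12 peak 5.96 kb from the gene, with 0.78 for Cort (adjusted p = 0.00725) and 0.58 for Dex (adjusted p = 0.0329).

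No difference between Dex and Cort was called at these peaks. None of the 45 tested peaks was called in either fit, no peak of the whole table was (0%), none of the 45 reached an unadjusted p under 0.05, and DESeq2 called none. The doses differed, 100 nM against 500 nM, so this compares the treatments as given. At the Ccl3 peak 15.4 kb from the gene the difference was 0.00 on the log2 scale with an interval from -0.34 to 0.33. At the peak over the Ccl8 gene the interval ran from -1.49 to 1.77, so a large difference would have been missed there.

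Without the replicate block IL4 was called different from both steroids at Ccl2, Ccl8, Ccl9 and Ccl3 peaks. At a Ccl4 peak it was called different from Cort only. Against Cort, 3 of 45 peaks were higher with IL4 and 2 lower, where 25% of all tested peaks were called. Against Dex, 3 were higher and 1 lower, where 26.7% of all were. With the replicate block 12 were higher and 10 lower against each steroid, where 40.4% and 42.7% of all were called. The Ccl2 peak 23.3 kb from the gene was higher with IL4 than with Cort by 1.97 ± 0.38 (edgeR adjusted p = 0.00228) and than with Dex by 2.23 ± 0.39 (edgeR adjusted p = 0.000919). The Ccl8 peak 21.9 kb away was higher by 1.57 ± 0.47 (edgeR adjusted p = 0.0254) and 1.68 ± 0.47 (edgeR adjusted p = 0.0172). The Ccl3 peak 5.93 kb from its gene was lower with IL4 by -0.57 ± 0.18 (edgeR adjusted p = 0.0322) and -0.52 ± 0.18 (edgeR adjusted p = 0.0466).

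**Figure D3:**
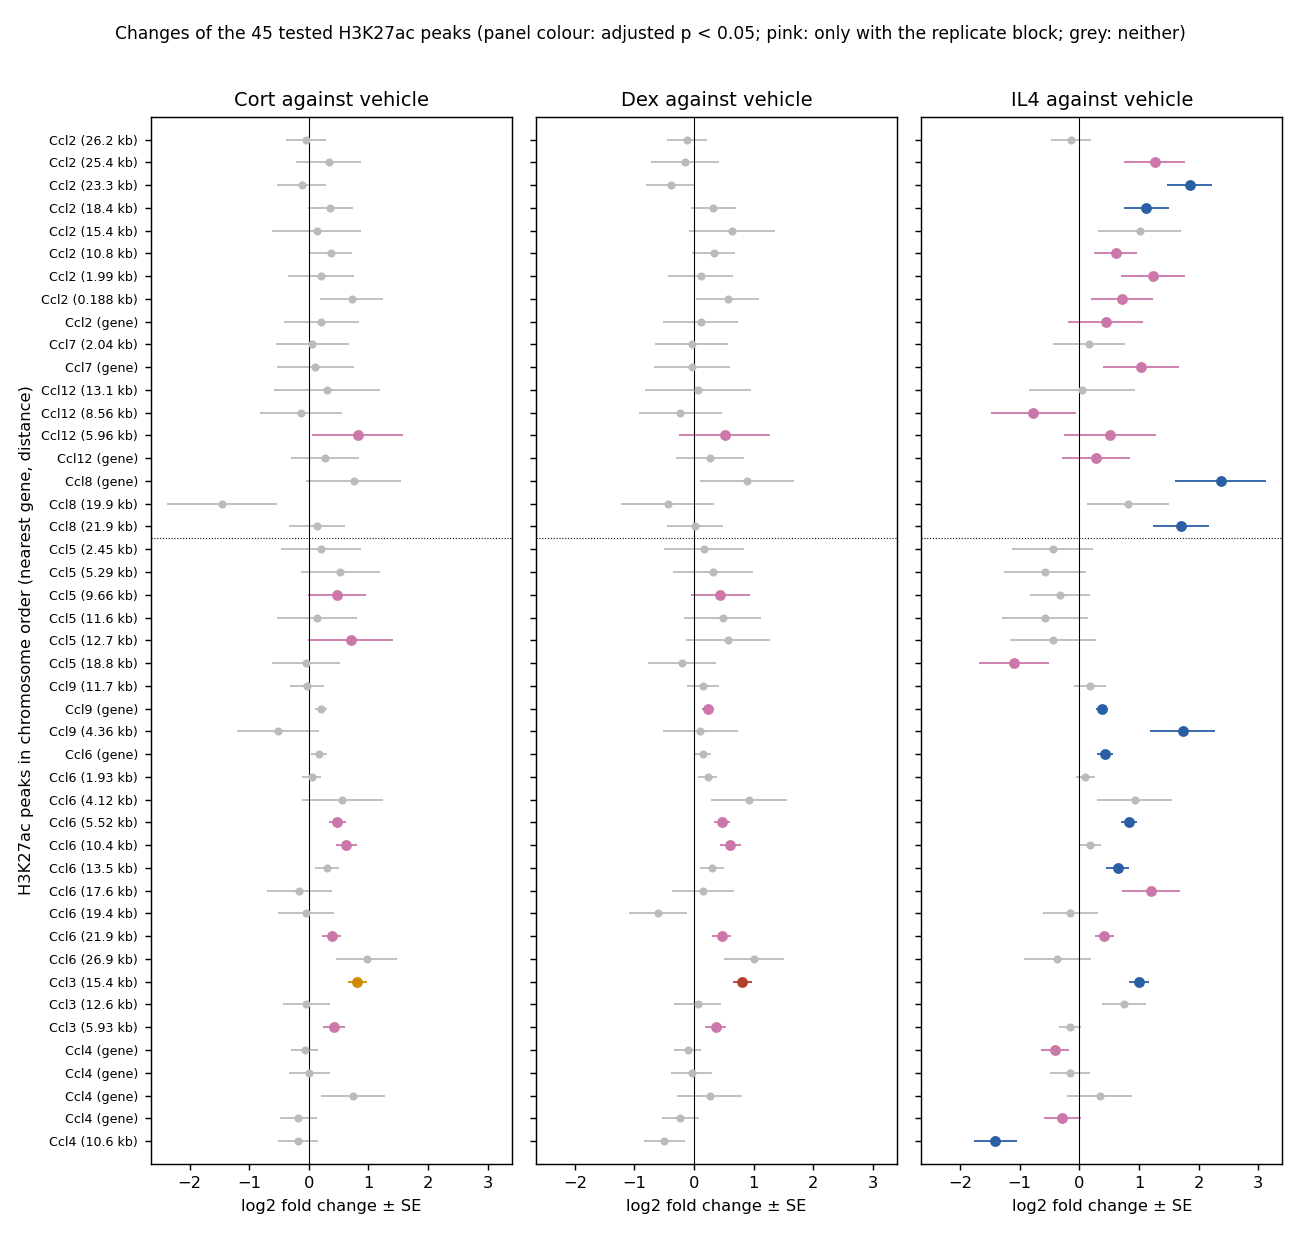
Log2 fold change against vehicle (x axis, points, bars ± SE, unblocked fit) of the 45 tested H3K27ac peaks in chromosome order (y axis, with distance from the gene), for Cort, Dex and IL4, with the dotted line between the 2 gene groups. Panel-coloured points passed the adjusted threshold, pink ones only with the replicate block, and the 11 coloured points with IL4 face 1 with each steroid.

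All H3K27ac peaks assigned to a gene were also summed. The peak covering Ccl3 and the start of the Ccl4 span was counted for Ccl4, so the Ccl3 sum leaves it out. That peak averaged 134 CPM in vehicle, 127 with Cort, 124 with Dex and 100 with IL4. Of the 9 genes, 3 rose with IL4, where 27.9% of 13276 genes were called: Ccl8 by 1.75 ± 0.49 (edgeR adjusted p = 0.0195), Ccl6 by 0.44 ± 0.13 (edgeR adjusted p = 0.0288) and Ccl9 by 0.37 ± 0.09 (edgeR adjusted p = 0.011). In edgeR's test none was called with Cort, where 2.55% of genes were, or Dex, where 6.94% were. With Cort Ccl3 and Ccl6, and with Dex Ccl3, Ccl6 and Ccl9, had an unadjusted p under 0.05, and DESeq2 called 1 gene with each steroid. With the block, where 47.1% were called with IL4, Ccl7 rose as well (0.80, adjusted p = 0.00648), and Ccl4 (-0.34, adjusted p = 0.0124) and Ccl5 (-0.59, adjusted p = 0.00933) fell. With the block Ccl3 rose with Cort (0.46, adjusted p = 0.00127, where 16.2% of genes were called). With Dex, where 25.2% were called, Ccl3 (0.42, adjusted p = 0.00128) and Ccl6 (0.37, adjusted p = 0.0256) rose.

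GR peaks lay both over the chemokine genes and at a distance from them. Of the 19, 12 lay in a gene span and 7 outside, and 16 overlapped an H3K27ac peak by at least 1 bp, against 52.9% of all GR peaks. The 3 outside H3K27ac peaks lay in the gene spans of Ccl5, with 2, and Ccl6. Ccl8 had no GR peak. The batch separated the peaks over genes from the others. In a test of batch 2 against batch 1, added after the data were seen, 9 of 16 tested peaks were lower in batch 2 and none higher, where 17.5% of all tested GR peaks were lower. All 9 lay in gene spans, at Ccl7, Ccl5, Ccl9, Ccl6, Ccl3 and Ccl4, with differences of -2.22 to -3.76 on the log2 scale. The exception among tested gene-span peaks lay at the start of Ccl9 (chr11:83578462-83578589), at -0.32 (edgeR adjusted p = 0.597). The 6 tested peaks outside gene spans differed by -0.42 to 0.38 and none was called.

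The strongest GR peak in a gene span, at Ccl9 (chr11:83574656-83575170), held 69.4 and 98.1 CPM in vehicle of batch 1 (replicates 1 and 2) and 6.99 and 9.05 CPM in vehicle of batch 2 (replicates 3 and 4). With Cort it held 31.0 and 54.6 CPM in batch 1 and 5.08 and 1.69 CPM in batch 2. With Dex it held 44.4 and 43.6 CPM in batch 1 and 2.38 and 6.51 CPM in batch 2, and with IL4, in batch 2, 7.52, 7.35 and 12.8 CPM. Batch 1 was above batch 2 in vehicle, Cort and Dex, and IL4 had no library in batch 1. In contrast, the Ccl2 peak 28.3 kb from the gene (chr11:82006840-82007230) held 8.49 and 8.92 CPM in vehicle of batch 1 and 17.1 and 6.46 CPM in batch 2. There the batches overlapped.

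**Figure D4:**
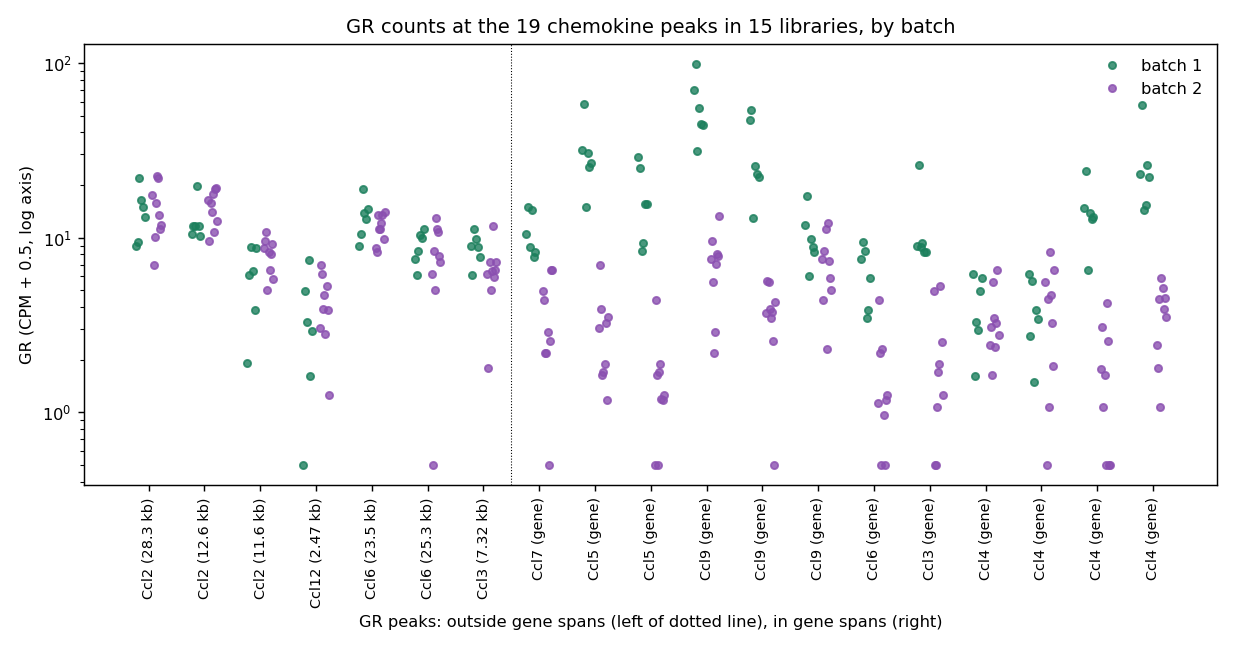
GR level (y axis, CPM + 0.5, log axis) at the 19 chemokine GR peaks in the 15 libraries, coloured by batch, with peaks outside gene spans to the left of the dotted line. The batches overlap on the left, and at most gene-span peaks on the right batch 1 lies above batch 2, as at the Ccl9 peak with 31.0 to 98.1 CPM against 1.69 to 12.8 CPM.

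In the fit with batch as a covariate and TMM scaling, no tested chemokine peak was called higher for GR with either steroid. With Cort 1 of 16 tested peaks was lower and none higher, where 27.6% of all tested GR peaks were called and 14.8% were lower, and with Dex none was called, where 30.3% of all were. With Dex 4 of the 16 had an unadjusted p under 0.05, and DESeq2 called 4. DESeq2 called 5 with Cort. Without Cort replicate 4 the Cort count was 5 and without vehicle replicate 3 it was 3, and without vehicle replicate 3 the Dex count was 2. The count and its direction depended on the scaling: with total counts in peaks 3 peaks were higher and none lower with Cort, and 4 were higher with Dex. With scaling by low-count peaks, chosen after the data were seen, 1 was higher and 1 lower with Cort, and 1 higher with Dex, the higher ones being the Ccl6 peaks 23.5 and 25.3 kb from the gene. Total-count scaling moved the median log2 fold change of all GR peaks from 0.17 to 0.96 with Cort and from -0.12 to 0.86 with Dex. Relative to the median of all peaks, the median of the chemokine peaks was -0.78 with Cort under both scalings, and -0.24 or -0.25 with Dex.

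The peak called with Cort lay in Ccl5 (chr11:83529135-83529231). It held 28.3 and 24.5 CPM in vehicle and 7.87 and 8.86 CPM with Cort in batch 1, and in batch 2 0.00 and 3.88 CPM in vehicle and 1.13 and 0.00 CPM with Cort. The groups were apart in batch 1 and near 0 in batch 2. The log2 fold change was -1.56 ± 0.48 (SE, 4 libraries per group, edgeR adjusted p = 0.0256), and in batch 1 alone -1.5 ± 0.40 (edgeR adjusted p = 0.00623, where 29.7% of peaks were called). In batch 2 alone it had too few counts to be tested. The call ended without any 1 of vehicle replicates 1, 2 and 4 or Cort replicates 1 and 2 (adjusted p from 0.0575 to 0.0769). With total-count scaling the value was -0.71 (adjusted p = 0.264). With Dex it was -0.66 ± 0.45 (edgeR adjusted p = 0.29).

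In batch 1 alone 4 of 16 peaks were called with Cort, where 29.7% of all tested peaks were, and 1 of 16 with Dex, where 30.9% were. The Ccl9 peak at chr11:83575276-83575443, which held 46.7 and 53.5 CPM in vehicle, 12.5 and 25.1 CPM with Cort and 22.7 and 21.8 CPM with Dex, was lower with both steroids. Its log2 fold change was -1.29 ± 0.37 with Cort (edgeR adjusted p = 0.00994) and -1.07 ± 0.36 with Dex (edgeR adjusted p = 0.0241). The Ccl4 peak at chr11:83664344-83664644 was lower with Cort (-1.36 ± 0.39, edgeR adjusted p = 0.0103). The Ccl2 peak 28.3 kb from the gene, with 21.3 and 15.8 CPM with Cort against 8.49 and 8.92 CPM in vehicle, was higher (1.23 ± 0.46, edgeR adjusted p = 0.0385). In batch 2 alone no peak of the whole table was called with any treatment (0%), and this Ccl2 peak was at -0.07 ± 0.50 with Cort.

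At the distal Ccl6 and Ccl3 sites the means with Cort, Dex and IL4 were above vehicle without passing the test with batch as a covariate. With the replicate block in its place, the Ccl6 peak 23.5 kb from the gene was called higher with Cort. The Ccl6 peak 25.3 kb from the gene was then called higher with Dex, and these values are given in the last section. The Ccl6 peak 23.5 kb from the gene (chr11:83616609-83616864) held 8.49, 10.0, 8.26 and 7.75 CPM in vehicle, 18.5, 13.3, 13.0 and 10.7 CPM with Cort and 12.2, 14.1, 10.7 and 11.6 CPM with Dex. No steroid library fell among the vehicle libraries, and the log2 fold change was 0.66 ± 0.25 with Cort (edgeR adjusted p = 0.0629) and 0.48 ± 0.25 with Dex (edgeR adjusted p = 0.194). It was 0.91 in batch 1 and 0.46 in batch 2 with Cort, and 0.60 and 0.44 with Dex. The Ccl6 peak 25.3 kb from the gene (chr11:83618425-83618577) held 7.08, 5.57, 5.72 and 0.00 CPM in vehicle and 9.43, 10.7, 12.5 and 10.7 CPM with Dex, again without overlap. With Cort it held 7.87, 9.85, 7.91 and 4.50 CPM, which overlapped vehicle (0.65 ± 0.45, edgeR adjusted p = 0.292). With Dex the log2 fold change was 1.19 ± 0.44 (edgeR adjusted p = 0.0543), with 0.79 in batch 1 and 1.74 in batch 2. Both sites lie in the strongest Ccl6 H3K27ac peak described above. The Ccl3 site 7.32 kb from the gene (chr11:83640283-83640520) lies in the Ccl3 H3K27ac peak that rose with both steroids in the blocked test. It held 8.49, 5.57, 5.72 and 1.29 CPM in vehicle, 10.7, 9.35, 6.78 and 4.50 CPM with Cort and 8.32, 7.27, 5.95 and 11.2 CPM with Dex, and the groups overlapped (0.53 ± 0.38 and 0.64 ± 0.38).

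The remaining GR peaks named by the rule were not called in a comparison with vehicle. These are the Ccl2 peak 12.6 kb from the gene, the Ccl7 peak, the second Ccl5 peak and the first Ccl9 peak described above. Their log2 fold changes were 0.35, -0.54, -0.96 and -1.06 with Cort and 0.04, -1.11, -1.04 and -0.87 with Dex. With IL4, 0 of 16 were called in edgeR's test, as was none of all tested GR peaks, 1 of the 16 had an unadjusted p under 0.05, and DESeq2 called 0. Between Dex and Cort edgeR called 0 of 16 peaks, again with 0% of all called, 0 had an unadjusted p under 0.05, and DESeq2 called 0. At 3 GR peaks, 1 near Ccl12 and 2 in the Ccl4 span, counts were too low for the test. The 2 in the Ccl4 span (chr11:83649541-83649616 and chr11:83649646-83649763) lie just before the start of Ccl3. The first of them lies within the 250 bases before that start.

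Other chemokine genes were compared in H3K27ac by their peaks within 50 kb. Ccl11 and Ccl1, which sit in the same array as Ccl2 and Ccl8, rose with IL4. Of 12 other CC chemokine genes 8 had a tested peak, and with IL4 4 rose and 1 fell (6 of 19 peaks higher and 1 lower, where 14.7% of all tested peaks were higher and 12.9% lower). The largest rises were at Ccl1 (3.35 ± 0.52, edgeR adjusted p = 0.000493) and Ccl28 (2.87 ± 0.47, edgeR adjusted p = 0.000626), and Ccl17, a ligand of Ccr4 known to be induced by IL4, rose by 1.38 ± 0.31 (edgeR adjusted p = 0.00522) and Ccl11 (eotaxin) by 1.62 ± 0.54 (edgeR adjusted p = 0.0387). Ccl25 fell. Of 17 CXC, XC and CX3C chemokine genes 10 were tested, and 5 fell with IL4 and none rose (5 of 21 peaks). They were Cx3cl1 (-2.0 ± 0.28, edgeR adjusted p = 0.00025), Cxcl14, Pf4, Cxcl1 and Cxcl16. Of 24 chemokine receptor genes 21 were tested, and with IL4 5 had higher peaks and 8 lower ones (8 of 88 peaks higher and 21 lower), including Cxcr2 (2.92 ± 0.35, higher) and Cx3cr1 (-1.91 ± 0.20, lower). Among the receptors of the chemokines described here, the Ccr1 peak with the smallest p rose by 1.75 ± 0.45 (edgeR adjusted p = 0.0114). That of Ccr2 was at -0.45 ± 0.27 (edgeR adjusted p = 0.234). In the blocked fit Ccr1 also had a lower peak with IL4. Without the block a Ccr1 peak was lower with IL4 than with Cort, and 1 was lower than with Dex. Ccr3 was among the receptors with a lower peak with IL4 in both fits. With Cort, Cxcr4 and Ccr6 rose and Cxcl14 fell, and no other gene of these 3 lists was called without the replicate block. With Dex, Ccl17, Cxcr4, Ccr6 and Ccr1 rose and Cxcl14, Cxcl17, Ackr2, Ackr4 and Ccr1l1 fell. Of 23 genes that signal to chemokine genes, Dusp1, a phosphatase of MAP kinases, and Fos rose with both steroids, and Nr3c1, the gene of GR itself, fell with Dex. With IL4 9 of these genes had a higher peak and 13 a lower one, 7 of them both (12 of 159 peaks higher and 33 lower). With the replicate block more genes were called. With IL4 all 10 tested CXC, XC and CX3C genes then had a lower peak (14 of 21 peaks, where 21.6% of all were lower) and none a higher one. Of the other CC genes 6 had a higher peak and 1 a lower one (9 of 19 peaks higher, 1 lower), and of the receptors 7 and 10 (12 of 88 peaks higher, 31 lower). With Cort 3 other CC genes (Ccl1, Ccl17 and Ccl24) and 5 receptors had a higher peak in that fit (3 and 13 peaks). Lower peaks were found at 2 other CC genes, 4 CXC, XC and CX3C genes and 6 receptors (2, 4 and 9 peaks). Of all tested peaks 12.6% were then called with Cort, 6.44% higher. With Dex 4 other CC genes and 5 receptors had a higher peak (5 and 14 peaks). There 1, 4 and 6 genes of these lists had a lower one (1, 5 and 13 peaks). Of all tested peaks 20.3% were called with Dex, 9.91% higher. For the signalling genes the block gave 6 with a higher and 5 with a lower peak with Cort (12 and 12 of 159 peaks). It gave 7 and 10 with Dex (16 and 19 peaks). With IL4 it gave 10 and 14 (23 and 53 peaks), where 43.5% of all tested peaks were called.

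The non-member genes whose H3K27ac peaks varied most like each chemokine group over the 12 libraries were ranked by Pearson's r among 26828 peaks. For the monocyte chemoattractant group they were Fkbp5 (r = 0.951), Mapk8 (0.951), Ifnar1 (0.951), Ptpra (0.95) and Tcea1 (0.947). For the macrophage inflammatory protein group they were Srgap2 (r = 0.975), Gatad2a (0.966), Zfp407 (0.964), Clcn7 (0.957) and Fnbp4 (0.956). These points share libraries, depth and the replicate numbers that separate them, and r is given as a description of these 12 libraries.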

How the data were processed

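GR and H3K27ac libraries of bone marrow macrophages were grouped by treatment from the sample titles, and columns headed C were taken as vehicle because every other column names its treatment. The authors deposited raw read counts per peak, over 1 peak set per assay, and the submitters' processing notes name mm10, MACS2, featureCounts, Bowtie2, fastp and SAMtools. How peaks were merged and duplicates handled is not given in the sources used here. The deposited tables mark some peaks as filtered TRUE by an unstated criterion, 30 of the 48 H3K27ac and 8 of the 19 GR peaks described here, and all peaks were used. The H3K27ac input library was not analysed here.

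Peaks were assigned to the nearest protein-coding span of a RefSeq table (GRCm38.p6), ties inside several spans going to the nearest gene end. The tests used edgeR 4.0.16 under R 4.3.3 (filterByExpr, TMM, quasi-likelihood test, all libraries of an assay in 1 fit, batch as a covariate for GR). The SE is the absolute log2 fold change over the square root of F, and intervals are 95% intervals. DESeq2 1.42.0 was an alternative. The test was also run on simulated counts with known changes. These counts held no effect of replicate number or batch, so that run does not cover either. The total counts given in the report limit precision.

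H3K27ac libraries with the same replicate number deviated together (correlations of 0.268 to 0.678 in 18 pairs, and -0.449 to 0.0406 in the others), so the numbers were taken to pair the libraries. The pairing comes from this check, not from the labels, and the blocked values are given beside the unblocked ones. Peaks with values per library are, for each treatment and gene group, the one with the smallest p, and for each gene the most abundant. Exceptions are marked. The genes, lists and rules were chosen with earlier results of these data known. Alternatives were other scalings, filters, distances, thresholds, fits of the compared groups alone, no batch term, each batch alone, the replicate block and leaving out each library. Chosen after seeing the data were leaving out replicate 2 of every group, other scalings with the block, scaling by low-count peaks for GR, peaks with filtered TRUE and batch 1 without the 1% of peaks with the most reads. Values of 2 genes of the receptor and marker lists are not reported here.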

Additional observations from a re-analysis of the deposited data

Results flagged for a closer look

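IL4 and Cort differed by a test of the difference itself (edgeR's quasi-likelihood test without the replicate block) at 5 of 45 H3K27ac peaks, where 25% of all tested peaks were called, and IL4 and Dex at 4 of 45, where 26.7% were. With the replicate block 22 were called against each steroid, where 40.4% and 42.7% of all were. IL4 exceeded Cort at the Ccl2 peak 23.3 kb from the gene (1.97), the Ccl8 peak 21.9 kb away (1.57) and the Ccl9 peak 4.36 kb away (2.25), and was below Cort at the Ccl3 peak 5.93 kb away (-0.57) and the Ccl4 peak 10.6 kb away (-1.22), all on the log2 scale. Against Dex the values were 2.23 at Ccl2, 1.68 at Ccl8, 1.63 at Ccl9 and -0.52 at Ccl3, and the Ccl4 peak was not called (-0.91, edgeR adjusted p = 0.0853). The Ccl9 peak rests on few counts, 7 with Cort, 12 with Dex and 40 with IL4.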

How the results depend on the processing

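Counts of called chemokine peaks are given in the order Cort, Dex and IL4 against vehicle, IL4 against Cort and IL4 against Dex, where they were 1, 1, 11, 5 and 4 for H3K27ac. With the replicate block they were 8, 8, 25, 22 and 22, with total-count scaling as well 6, 7, 23, 20 and 22, and with low-count scaling as well 8, 7, 27, 19 and 20. Without replicate 2 of every group the block gave 7, 12, 20, 18 and 16, and no block gave 1, 2, 11, 8 and 7. Leaving out 1 library at a time gave 0 to 2, 0 to 2, 4 to 10, 2 to 5 and 1 to 6. Requiring a change of 1 or more in log2 size left 0 for Cort, 0 for Dex and 6 for IL4. DESeq2 called 2 for Cort, 2 for Dex and 2 for IL4 against Dex. Low-count scaling gave 0 for Cort and 2 for IL4 against Dex, the compared groups alone gave 0 for Cort, a gene distance of 20 kb gave 3 and 2 for IL4 against Cort and Dex, and peaks marked filtered TRUE gave 7 for IL4. Summed per gene, where 0, 0 and 3 genes were called with Cort, Dex and IL4, the block gave 1, 2 and 6 and DESeq2 gave 1 for Cort and 1 for Dex.

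For GR, where 1 peak was called with Cort and 0 with Dex, same-numbered vehicle, Cort and Dex libraries did not all deviate together. Their correlations were -0.197 to 0.187 in 12 pairs. With 2 libraries per group and batch the deviations from the mean mirror each other, so each value is repeated and the 12 are not independent. The correlations of IL4 replicate 3 with number 3 of the same batch were -0.165 (vehicle), 0.226 (Cort) and -0.0952 (Dex). The replicate block gave 2 for Cort, the Ccl5 peak (-1.5, adjusted p = 0.0287) and the Ccl6 peak 23.5 kb from its gene, which was higher (0.72, adjusted p = 0.0347), and 1 for Dex, the Ccl6 peak 25.3 kb away, also higher (1.30, adjusted p = 0.0292), in edgeR's test. Other settings gave, for Cort and Dex in turn, total-count scaling 3 and 4, DESeq2 5 and 4, no count filter 0 and 1, low-count scaling 2 and 1, and batch 1 alone 4 and 1, with or without the 1% of peaks with the most reads. Median-of-ratios size factors gave 2 for Cort, no batch term 0 and batch 2 alone 0. For Dex the compared groups alone gave 2 and leaving out the 1% of peaks with the most reads gave 1. Without 1 library at a time the counts ranged from 0 to 5 for Cort and from 0 to 2 for Dex. No paired analysis was possible of the GR IL4 libraries because only number 3 is shared with vehicle within a batch. The sign turned for the Ccl5 peak 12.7 kb from its gene with Cort (-0.33 without Cort replicate 2, and up to 1.42 without vehicle replicate 2) and the Ccl12 gene peak with IL4 (-0.22 without IL4 replicate 2, and up to 0.95 without vehicle replicate 2). Of 62 named changes called neither with nor without the block, 33 changed sign and 15 were called under at least 1 alternative. The cause was not tested for any of these. Low depth limits the precision at GR peaks and at the small Ccl8 and Ccl9 H3K27ac peaks.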
